A study of Mus musculus with 12 samples.

Results

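Transcript levels of TGF-beta and activin pathway genes were examined in 4 ligand genes (Tgfb1, Tgfb2, Tgfb3 and Inhba), 3 receptor genes (Tgfbr1, Tgfbr2 and Tgfbr3) and 2 SMAD genes (Smad3 and Smad7). The 9 genes were chosen by name and found by matching Ensembl identifiers to symbols, out of 54532 mouse genes in the deposited table, and all 9 passed the filter on low values. The cells were bone marrow mesenchymal stem cells (MSCs) at passage 3, flushed from limb bones of 4-week-old C57BL/6 mice. Control cells came from Chd7fl/fl animals (labelled WT), and the cells labelled Chd7 KO came from Prx1-cre;Chd7fl/fl animals, in which a promoter of the early limb mesenchyme drives the Cre recombinase that removes exon 2 of Chd7, a chromatin remodeler. Both carried the floxed allele, and cells in the marrow that do not descend from limb mesenchyme are not expected to have expressed this Cre. RNA was collected 5 days after a change to osteogenic medium, which contained dexamethasone at 10 nM with β-glycerophosphate (10 mM) and ascorbic acid (50 µM), or adipogenic medium, which contained dexamethasone at 1 µM with isobutylmethylxanthine (0.5 µM) and insulin (10 µg/ml). Each of the 4 groups had 3 libraries. The labels do not state whether libraries came from separate animals or cultures, so each p-value measures only the spread between these libraries.

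TGF-beta is secreted in a latent complex and released outside the cell, then binds the type II receptor TGFBR2, which activates the type I receptor TGFBR1. TGFBR3 (betaglycan) is a co-receptor that presents TGF-beta ligands. Activin A, a dimer of the Inhba product, uses its own activin receptors, and both routes lead to phosphorylation of SMAD2 and SMAD3, which enter the nucleus with SMAD4, while SMAD7 is an inhibitor induced by the pathway. In bone marrow stroma TGF-beta signaling is known for its part in matrix production, in recruitment of osteoblast precursors and in restraint of adipocyte differentiation.

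Values are FPKM (fragments scaled to gene length and to library depth), so levels of different genes can be set side by side per length. Between 17469171 and 21065950 fragments per library were recovered on genes, and the 9 genes had 627 to 9219 fragments each per library. Differences are given on the log2(FPKM + 1) scale, which understates changes of low genes, and were tested with limma over 12871 genes at an adjusted p of 0.05.

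The whole-gene level of the targeted gene does not tell the genotypes apart in adipogenic medium. Chd7 was at 2.64, 2.67 and 2.77 FPKM in control and 2.03, 2.35 and 2.28 FPKM in labelled knockout libraries under osteogenic conditions, a log2 difference of -0.20 (adjusted p = 0.160). The adipogenic values were 2.26, 1.81 and 2.23 FPKM in control and 2.03, 2.35 and 2.48 FPKM in labelled knockout libraries, a log2 difference of 0.09 (adjusted p = 0.428). The deletion removes only exon 2 of a gene with 41 exon blocks, so whole-gene FPKM need not fall, and exon 2 was not measured alone. The paper describes the deletion as ending translation. It reports loss of CHD7 by tissue staining, and it compared CHD7 protein in MSCs of these genotypes by western blot. Since the values here do not test the deletion, the genotype is named by the label throughout. Library 2 of the adipogenic controls stood apart, with a mean correlation over genes of 0.941 with its own group and 0.981 with the osteogenic controls, so the differences of the 9 genes that rest on it are given with and without it. Of 8 stromal and MSC markers, Col1a1 (587 to 1073 FPKM), Itgb1 (317 to 412 FPKM), Pdgfrb, Ly6a (18.9 to 48.9 FPKM), Prrx1 and Pdgfra were at or above 5.02 FPKM in all libraries, while Thy1 and Nt5e stayed at or below 1.44 FPKM. All 10 listed macrophage markers were detected in every library, led by Lyz2 at 3845 to 14410 FPKM, and of 5 adipocyte markers Adipoq and Plin1 were below 1 FPKM in all 12 libraries while Cebpa was at 40.8 to 108 FPKM, Fabp4 at 12.7 to 39.2 FPKM and Pparg at 3.85 to 12.4 FPKM. Summed adipocyte markers were at 146 to 152 FPKM in osteogenic and 57.4 to 103.5 FPKM in adipogenic controls. In the labelled knockout they were at 127 to 135 and 99.2 to 140 FPKM. Summed osteoblast markers, led by Alpl in adipogenic medium, were at 13.7 to 15.7 and 33.2 to 64.6 FPKM in controls. They were at 12.05 to 12.9 and 37.4 to 46.3 FPKM in the labelled knockout. The medium names do not state how far cells had differentiated. Bulk RNA cannot tell fewer cells of a type from less RNA per cell.

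The sequence before the start site was taken from RefSeq (GRCm38.p6) for 6 of the 9 genes, and 4 of them are printed. Inhba and Smad3 are shown because their genotype differences had opposite signs in the 2 media. Those of Tgfbr1 did too, but its windows are not printed. Tgfb1 and Tgfb2 are shown because they changed in opposite directions in adipogenic medium. Tgfb3, Tgfbr3 and Smad7 were not matched. Each line runs 5′ to 3′ over the 250 bases that end just before the start, and capitals mark a match to a searched motif on either strand.
Inhba, plus strand, chr13:16011601-16011850: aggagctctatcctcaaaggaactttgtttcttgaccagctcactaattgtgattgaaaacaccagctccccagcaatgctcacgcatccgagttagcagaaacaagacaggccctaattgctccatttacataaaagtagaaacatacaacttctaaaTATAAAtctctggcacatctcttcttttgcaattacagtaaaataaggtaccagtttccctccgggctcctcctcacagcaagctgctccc
Smad3, minus strand, chr9:63757995-63758244: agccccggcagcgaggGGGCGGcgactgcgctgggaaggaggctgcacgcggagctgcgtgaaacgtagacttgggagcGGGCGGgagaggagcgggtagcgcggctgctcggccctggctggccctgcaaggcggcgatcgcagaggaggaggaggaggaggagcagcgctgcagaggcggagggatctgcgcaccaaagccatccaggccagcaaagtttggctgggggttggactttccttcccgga
Tgfb1, plus strand, chr7:25686752-25687001: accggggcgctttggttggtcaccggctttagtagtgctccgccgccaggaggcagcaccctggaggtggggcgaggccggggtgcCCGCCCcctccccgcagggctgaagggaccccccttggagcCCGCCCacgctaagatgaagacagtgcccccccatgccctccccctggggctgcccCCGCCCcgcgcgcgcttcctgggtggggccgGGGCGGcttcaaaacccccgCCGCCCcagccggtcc
Tgfb2, minus strand, chr1:186705990-186706239: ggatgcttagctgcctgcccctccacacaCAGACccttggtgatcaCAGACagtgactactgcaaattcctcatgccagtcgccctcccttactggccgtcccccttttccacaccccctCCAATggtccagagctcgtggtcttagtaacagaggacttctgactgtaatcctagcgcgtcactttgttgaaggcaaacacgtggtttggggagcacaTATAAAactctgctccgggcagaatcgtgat

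The motifs searched, with no overlap between matches in the windows shown, were TGACGTCA (cAMP response element, in 1.546% of 32851 promoter windows of this length), TGANTCA (AP-1 site, 6.749%), GTCTAGAC (palindromic SMAD-binding element, 0.167%), CAGAC (SMAD box, 42.194%), the TATA box motif TATAAA (12.368%), CCAAT (33.85%) and GGGCGG (GC box, 32.742%). The windows differed in composition. The Inhba window had a GC content of 43.2%, below the lower quartile of all windows (45.2%), and held only a TATAAA match, 91 bases before the start. The Tgfb2 window (53.6% GC) held TATAAA 31 bases before the start, CCAAT at 130 and CAGAC at 221 and 204. The Tgfb1 and Smad3 windows, at 75.2% and 69.2% GC, lay above the upper quartile (61.2%) and held 5 and 2 GC boxes and no TATAAA. Among the receptors, the Tgfbr2 window was at 58.4% GC and the Tgfbr1 window at the annotated gene start at 74.8%, and neither held TATAAA. A match is a description of letters, and no factor was measured on these promoters.

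The pathway genes were expressed at moderate to high levels in all 12 libraries. Inhba (50.1 to 89.2 FPKM) and Tgfb1 (41.0 to 82.3 FPKM) had the highest levels per length, followed by Tgfbr1, Tgfbr2 and Tgfb3, while Tgfb2, Smad3, Smad7 and Tgfbr3 stayed below 24 FPKM. In adipogenic medium 5 of the 9 genes changed with the genotype label, with Tgfb2, Tgfb3 and Smad7 higher and Tgfb1 and Smad3 lower, where 33.2% of all tested genes were called (16.7% higher and 16.5% lower). With only the 6 adipogenic libraries 2 of the 9 were called, Tgfb2 and Smad7, against 13% of all genes, and without control library 2 all 9 were, against 51% of all genes. In osteogenic medium limma called 0 of the 9, against 9.09% of all genes (4.94% higher and 4.15% lower). There, 5 of the 9 had an unadjusted p under 0.05 (23.3% of all genes), limma voom on the recovered fragments called 0, and 5 were called (Tgfb3, Inhba, Tgfbr1, Tgfbr2 and Smad3) when only the 6 osteogenic libraries were fitted, where 26.6% of all genes were called. Without library 2 of the adipogenic controls, which enters this comparison only through the pooled error, 4 were called (Tgfb3, Inhba, Tgfbr1 and Smad3) against 22.2% of all genes. The median absolute log2 difference of the 9 genes was 0.216 in osteogenic and 0.491 in adipogenic medium, beside 0.114 and 0.186 over all genes tested.

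**Figure D1:**
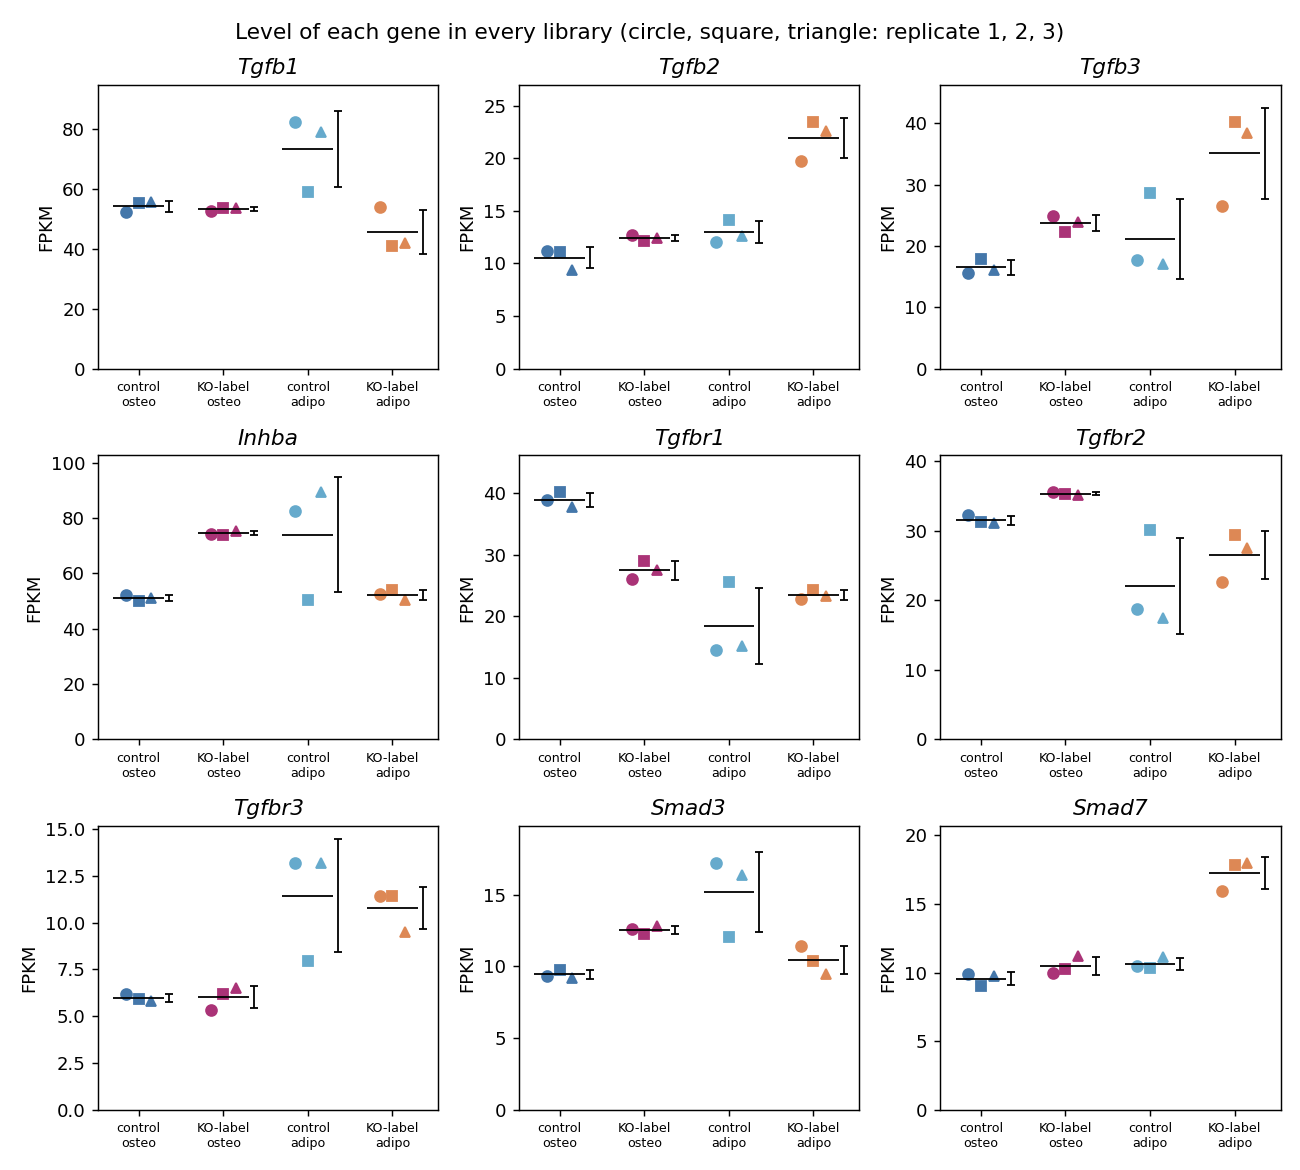
FPKM of each of the 9 genes (vertical axis, from 0) in every library, by genotype label and medium (KO-label marks libraries labelled knockout). Horizontal lines are group means and bars SD (n = 3). Smad7 and Tgfb2 stand highest in the 3 adipogenic libraries labelled knockout, and adipogenic control library 2 (square) lies near the osteogenic controls for Inhba at 50.2 FPKM.

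Among the ligand genes, Tgfb1 fell with the genotype label in adipogenic medium and hardly differed in osteogenic medium. Tgfb1 (ENSMUSG00000002603, chromosome 7 from 25687002 to 25705077 of GRCm38, 8 exon blocks) encodes the most abundant TGF-beta isoform in bone matrix. The osteogenic values were 52.1, 55.1 and 55.5 FPKM in control and 52.5, 53.7 and 53.5 FPKM in labelled knockout libraries, which overlap. In adipogenic medium the controls were at 82.3, 58.8 and 79.0 FPKM and the labelled knockout libraries at 54.0, 41.0 and 41.9 FPKM. All 3 labelled knockout libraries lay below all 3 controls, with control library 2 nearest to them. The log2 difference was -0.67 (standard error 0.128, adjusted p = 0.00347) in adipogenic and -0.03 (adjusted p = 0.941) in osteogenic medium, and these differed by -0.64 (interaction, adjusted p = 0.0321). The adipogenic difference was -0.82 (adjusted p = 8.67e-05) without control library 2. It no longer passed when only the 6 adipogenic libraries were fitted (adjusted p = 0.0538).

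Tgfb2 showed the opposite direction. Tgfb2 (ENSMUSG00000039239, chromosome 1 from 186622792 to 186705989) encodes a ligand that depends more than the others on the betaglycan co-receptor for binding. It was at 11.2, 11.1 and 9.38 FPKM in osteogenic controls and 12.7, 12.1 and 12.4 FPKM in osteogenic libraries labelled knockout (log2 difference 0.22, adjusted p = 0.147). The adipogenic values were 12.1, 14.1 and 12.7 FPKM in control and 19.8, 23.4 and 22.6 FPKM in labelled knockout libraries. The groups did not overlap in either medium, and the 3 adipogenic libraries labelled knockout were above all 9 others. The adipogenic log2 difference was 0.72 (standard error 0.0831, adjusted p = 0.000195), and it exceeded the osteogenic one by 0.50 (interaction, adjusted p = 0.0149). Both calls held in every alternative run.

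Mean Tgfb3 was higher in the labelled knockout in both media, with a call in adipogenic medium. Tgfb3 (ENSMUSG00000021253, chromosome 12 from 86056745 to 86079041) encodes the third TGF-beta isoform. It was at 15.7, 18.0 and 16.0 FPKM in osteogenic controls and 24.9, 22.3 and 23.9 FPKM in osteogenic libraries labelled knockout (log2 difference 0.49, adjusted p = 0.156, and 0.0249 without library 2 of the adipogenic controls). Adipogenic libraries had 17.7, 28.7 and 17.1 FPKM in control and 26.6, 40.3 and 38.5 FPKM in labelled knockout libraries. The groups were apart in osteogenic medium and overlapped in adipogenic medium through control library 2 and labelled knockout library 1. The adipogenic log2 difference was 0.72 (standard error 0.194, adjusted p = 0.0178), and 0.95 (adjusted p = 0.000471) without control library 2. The call was lost without control library 1 (adjusted p = 0.0661) or 3 (0.0677) and without labelled knockout library 2 (0.0682) or 3 (0.0678), and with only the 6 adipogenic libraries (0.109). The difference between the media was 0.22 (95% interval -0.38 to 0.83, adjusted p = 0.594).

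The summed level of the 3 TGF-beta genes was 81.4 ± 2.63 FPKM in osteogenic controls and 89.4 ± 1.08 FPKM in osteogenic libraries labelled knockout, and 107.5 ± 5.35 and 102.7 ± 2.22 FPKM in adipogenic medium (SD, n = 3 each). Tgfb1 made up 65.5% to 68.6% of this sum in osteogenic controls and 58.3% to 61.0% in the labelled knockout. In adipogenic medium its share was 57.8% to 73.4% in controls and 39.2% to 53.8% in the labelled knockout. Tgfb2 gave 10.8% to 13.9% of the sum in adipogenic controls and 19.7% to 22.4% in the labelled knockout, and Tgfb3 gave 15.8% to 28.3% and 26.5% to 38.4%. In adipogenic labelled knockout libraries 2 and 3 most of the TGF-beta transcript was Tgfb2 and Tgfb3, and in all 10 other libraries it was Tgfb1. These shares are descriptions and were not tested.

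**Figure D2:**
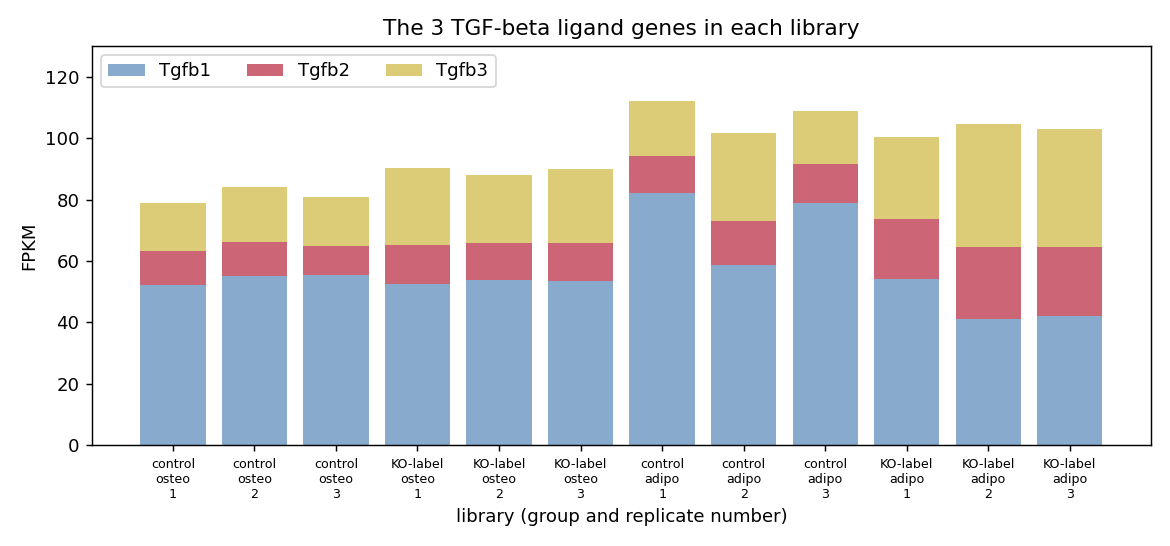
Stacked FPKM of Tgfb1, Tgfb2 and Tgfb3 (vertical axis, from 0) in each of the 12 libraries. The total lies between 79.0 and 112.1 FPKM, and the Tgfb1 share is lowest, at 39.2%, in adipogenic labelled knockout library 2.

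The genotype differences of the activin gene Inhba had opposite signs in the 2 media. Inhba (ENSMUSG00000041324, chromosome 13 from 16011851 to 16031621) encodes the inhibin beta A subunit, which forms activin A. In osteogenic medium it was at 52.3, 50.1 and 51.2 FPKM in control and 74.1, 73.9 and 75.3 FPKM in labelled knockout libraries, groups that are far apart. In adipogenic medium the controls were at 82.6, 50.2 and 89.2 FPKM and the labelled knockout libraries at 52.6, 53.9 and 50.2 FPKM. Control libraries 1 and 3 were above and control library 2 was level with the lowest labelled knockout library. The log2 difference was 0.53 (standard error 0.165, adjusted p = 0.0771) in osteogenic and -0.45 (adjusted p = 0.0592) in adipogenic medium. Neither passed alone, but they differed by -0.98 (95% interval -1.50 to -0.46, adjusted p = 0.0155). Without library 2 of the adipogenic controls, the osteogenic difference of 0.53 had an adjusted p of 2.92e-05, the adipogenic one was -0.71 (adjusted p = 1.33e-06) and their difference was -1.24 (adjusted p = 6.71e-07).

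For the type I receptor gene Tgfbr1 the 2 differences had the opposite signs. Tgfbr1 (ENSMUSG00000007613, chromosome 4 from 47353222 to 47414931) encodes the kinase that phosphorylates SMAD2 and SMAD3. It was at 38.8, 40.1 and 37.7 FPKM in osteogenic controls and 26.0, 29.1 and 27.5 FPKM in osteogenic libraries labelled knockout (log2 difference -0.49, adjusted p = 0.0979, and 0.00013 without library 2 of the adipogenic controls). Adipogenic libraries had 14.6, 25.5 and 15.2 FPKM in control and 22.8, 24.3 and 23.4 FPKM in labelled knockout libraries. The osteogenic groups did not overlap, and in adipogenic medium control library 2 was the highest of the 6. The adipogenic log2 difference was 0.38 (adjusted p = 0.0998), and 0.62 (adjusted p = 8.18e-06) without control library 2. The difference between the media of 0.86 passed (adjusted p = 0.0261). This interaction was lost with no filter on low values (adjusted p = 0.0576) and in 8 of the 12 fits that left out a library, at adjusted p of 0.0502 to 0.0613, and was 1.11 (adjusted p = 2.71e-06) without adipogenic control library 2. The 8 were osteogenic control libraries 1 and 2, osteogenic labelled knockout libraries 1 and 3, adipogenic control libraries 1 and 3, and adipogenic labelled knockout libraries 2 and 3.

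Tgfbr2 and Tgfbr3 showed no called difference between genotypes in the fit of all 12 libraries. Tgfbr2 (ENSMUSG00000032440, chromosome 9 from 116084293 to 116175360), the ligand-binding type II receptor, was at 32.3, 31.2 and 31.1 FPKM in osteogenic controls and 35.5, 35.3 and 35.1 FPKM in osteogenic libraries labelled knockout (log2 difference 0.16, 95% interval -0.21 to 0.53, adjusted p = 0.639). The adipogenic values were 18.8, 30.1 and 17.4 FPKM in control and 22.6, 29.4 and 27.6 FPKM in labelled knockout libraries (log2 difference 0.29, 95% interval -0.09 to 0.66, adjusted p = 0.212). The osteogenic groups did not overlap, and the adipogenic groups did. With only the 6 osteogenic libraries the osteogenic difference passed (adjusted p = 0.00623). Without adipogenic control library 2, Tgfbr2 was higher in the labelled knockout by 0.52 (adjusted p = 0.000779). Within a library the ratio of Tgfbr2 to Tgfbr1 was 0.779 to 0.831 in osteogenic controls and 0.992 to 1.37 in the 9 other libraries. Tgfbr3 (ENSMUSG00000029287, chromosome 5 from 107106570 to 107289629) differed with the medium. It was at 6.18, 5.93 and 5.79 FPKM in osteogenic controls and 5.34, 6.21 and 6.50 FPKM in osteogenic libraries labelled knockout. The adipogenic libraries had 13.2, 7.96 and 13.2 FPKM with the control label and 11.4, 11.4 and 9.48 FPKM with the knockout label. All 6 adipogenic libraries were above all 6 osteogenic ones. The log2 genotype differences of Tgfbr3 were 0.01 (95% interval -0.35 to 0.36) and -0.05 (95% interval -0.41 to 0.30), and the adipogenic one was -0.27 (adjusted p = 0.0238) without control library 2. With every library rescaled to the same sum of FPKM, these 2 small differences changed sign.

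The SMAD genes moved apart in adipogenic medium, where the transducer Smad3 fell and the inhibitor Smad7 rose with the genotype label. Smad3 (ENSMUSG00000032402, chromosome 9 from 63646767 to 63757994) was at 9.35, 9.76 and 9.21 FPKM in osteogenic controls and 12.6, 12.3 and 12.8 FPKM in osteogenic libraries labelled knockout. Adipogenic libraries had 17.2, 12.0 and 16.4 FPKM in control and 11.4, 10.4 and 9.49 FPKM in labelled knockout libraries. The groups did not overlap in either medium, with the labelled knockout higher in osteogenic and lower in adipogenic medium. The log2 difference was 0.38 (adjusted p = 0.0640) in osteogenic medium and -0.49 (standard error 0.111, adjusted p = 0.00779) in adipogenic medium, and they differed by -0.87 (95% interval -1.22 to -0.52, adjusted p = 0.00413). Without library 2 of the adipogenic controls the osteogenic difference passed (adjusted p = 0.00168) and the adipogenic one was -0.64 (adjusted p = 2.98e-05). With only the 6 adipogenic libraries the adjusted p was 0.0786.

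Smad7 (ENSMUSG00000025880, chromosome 18 from 75367529 to 75395935) was between 8.99 and 11.2 FPKM in the 9 libraries other than the adipogenic labelled knockout. It was at 9.90, 8.99 and 9.79 FPKM in osteogenic controls and 9.97, 10.3 and 11.2 FPKM in osteogenic libraries labelled knockout, and at 10.5, 10.3 and 11.1 FPKM in adipogenic controls. In adipogenic libraries labelled knockout it was at 16.0, 17.8 and 18.0 FPKM, above all 9 others. The adipogenic log2 difference was 0.65 (standard error 0.0624, adjusted p = 6.47e-05), beside 0.12 (adjusted p = 0.284) in osteogenic medium, and they differed by 0.53 (adjusted p = 0.00279). Library 2 of the adipogenic controls, at 10.3 FPKM, was close to the other 2 here, and the adipogenic difference was 0.63 without it. The ratio of Smad7 to Smad3 within a library was 0.921 to 1.06 in osteogenic controls, 0.793 to 0.876 in the osteogenic labelled knockout, 0.610 to 0.856 in adipogenic controls and 1.39 to 1.90 in the adipogenic labelled knockout.

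**Figure D3:**
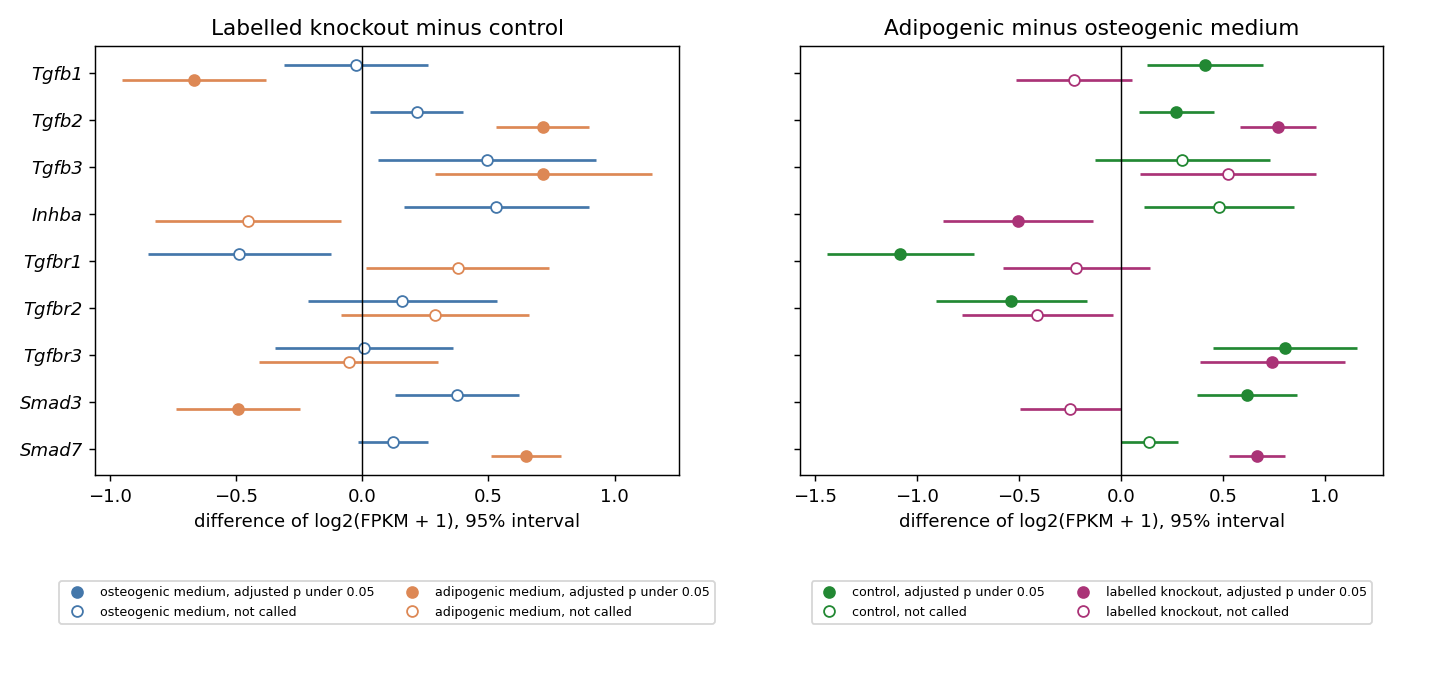
Log2(FPKM + 1) differences with 95% intervals for the 9 genes, by genotype label in each medium (left) and by medium in each genotype (right). Filled points had an adjusted p under 0.05. Inhba lies at 0.53 in osteogenic and -0.45 in adipogenic medium, and Smad7 at 0.12 and 0.65.

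Whether the genotype difference depended on the medium was tested by the interaction. It was called for 6 of the 9 genes, against 20.4% of all genes tested (10.9% higher and 9.58% lower), with Tgfb2, Tgfbr1 and Smad7 more positive and Tgfb1, Inhba and Smad3 more negative in adipogenic medium. Without adipogenic control library 2 it was called for 7, Tgfbr2 being added (0.36, adjusted p = 0.0319), against 42.2% of all genes. The adjusted p of Tgfb1 was the largest of the 6, and it lay between 0.0593 and 0.0784 in the 10 fits that left out any library other than adipogenic control library 2 or adipogenic labelled knockout library 1, and was 0.00101 without that control library, 0.0687 with no filter on low values and 0.0525 with libraries rescaled to the same sum of FPKM. That rescaling took the median difference of all genes from -0.0145 to 0.138 in adipogenic medium and from -0.0028 to 0.159 in the interaction.

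Between the media, 6 of the 9 genes differed in control libraries, against 22.8% of all genes (10.5% higher and 12.3% lower). Tgfb1 (log2 difference 0.41), Tgfb2 (0.27), Tgfbr3 (0.81) and Smad3 (0.62) were higher in adipogenic medium, and Tgfbr1 (-1.08) and Tgfbr2 (-0.54) were lower. With only the 6 control libraries limma called 0 of the 9, against 3.81% of all genes, with 6 at an unadjusted p under 0.05 (27.6% of all genes), while limma voom with all libraries called 6. Without adipogenic control library 2 there were also 6, with Inhba added (0.74, adjusted p = 1.56e-06) and Tgfb2 lost, against 47.8% of all genes. The calls of Tgfb1, Tgfb2 and Tgfbr2 were lost (adjusted p of 0.0571 to 0.157) when any osteogenic control library, or adipogenic control library 1 or 3, was left out, and that of Tgfb2 without adipogenic control library 2 was at 0.0595. In the labelled knockout 4 of the 9 differed between media, against 27.9% of all genes (13.9% higher and 14% lower), and 8 with only the 6 labelled knockout libraries, against 37.4% of all genes. Tgfb2 (0.77), Tgfbr3 (0.74) and Smad7 (0.67) were higher and Inhba (-0.50, adjusted p = 0.045) was lower in adipogenic medium. The Inhba call was lost when any of the 6 labelled knockout libraries was left out (adjusted p of 0.0856 to 0.12), and was at 7.96e-06 without adipogenic control library 2. Without that library 8 of the 9 were called in this comparison, against 42.5% of all genes. These comparisons share libraries with those between genotypes, so their values are not independent of them.

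In osteogenic medium the libraries of the 2 genotypes did not overlap for 7 of the 9 genes, 6 higher and 1 lower, against 44.3% of all genes tested (21% higher and 23.2% lower). In adipogenic medium they did not overlap for 4 of the 9 (Tgfb2 and Smad7 higher, Tgfb1 and Smad3 lower), against 38.6% of all genes (20.2% higher and 18.4% lower). Between media the libraries were apart for 7 of the 9 in control cells (34.4% of all genes, 16.2% higher and 18.3% lower) and for 8 of the 9 in the labelled knockout (52.5%, 26% higher and 26.5% lower).

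The wider pathway was read from a list of 60 other symbols, of which 58 were matched and 44 passed the filter. With the knockout label in osteogenic medium 13 of the 44 were called (29.5%, against 9.09% of all genes tested), 11 higher and 2 lower. In adipogenic medium 28 were called (63.6%, against 33.2% of all genes), 23 higher and 5 lower, and the difference between the media was called for 18 (40.9%, against 20.4%). The median log2 difference of the 44 was 0.07 in osteogenic and 0.36 in adipogenic medium. Of 8 genes called in both media, 5 had the same direction, and Ltbp3, Postn and Adam12 had opposite ones. Among the genes with a called negative interaction, Inha, the inhibin alpha subunit, was at -0.68 (adjusted p = 0.0482, lost in 14 of 19 alternatives). Smurf1, a ubiquitin ligase related to Smurf2, had the smallest of these, at -0.29, and lost its call when libraries were rescaled to the same sum of FPKM. The genes below the filter included Nodal, Mstn, Cer1, Lefty2 and the receptor genes Acvr1c and Acvr2b, the last at 0.314 to 0.744 FPKM.

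Other genes of the activin side were called in adipogenic medium. Fst encodes follistatin, a secreted protein that binds activin. It was at 2.97, 3.03 and 2.53 FPKM in osteogenic controls and 3.69, 3.33 and 3.81 FPKM in osteogenic libraries labelled knockout. Adipogenic libraries had 3.46, 3.47 and 4.18 FPKM with the control label and 10.4, 11.8 and 11.9 FPKM with the knockout label. The 3 adipogenic libraries labelled knockout were far above all others, with a log2 difference of 1.40 (standard error 0.08, adjusted p = 3.3e-06) and an interaction of 1.14 (adjusted p = 0.000172). The ratio of Inhba to Fst was 14.5 to 23.9 in the 9 other libraries and 4.24 to 5.04 in these 3. Fstl3, a related activin-binding protein, rose by 0.51 in adipogenic medium (adjusted p = 0.0118, and 0.0683 without labelled knockout library 3). The Fstl3 call was also lost with only the 6 adipogenic libraries. Of its exonic length, 47.3% is shared with Prss57 on the other strand, which reached only 0.0386 FPKM. Inhbb, the other activin subunit, was at 3.98 to 9.54 FPKM with no called difference between genotypes. Among the activin receptors, Acvr2a (type II) rose by 0.33 (adjusted p = 0.00761) and Acvr1b (type I) fell by 0.62 (adjusted p = 0.0389) in adipogenic medium. Acvr1b was at 15.8, 8.07 and 16.0 FPKM in adipogenic controls and 9.02, 7.44 and 7.40 FPKM in the labelled knockout. Its call was lost without control library 1 or 3 or labelled knockout library 2 or 3. It was also lost with no filter on low values and with only the 6 adipogenic libraries, and adjusted p reached 0.161 over the alternatives. Without control library 2 the Acvr1b difference was -0.93 (adjusted p = 1.52e-05).

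Of the genes for latent TGF-beta and its activation, 3 of the 7 tested were called in osteogenic medium, all higher, against 9.09% of all genes, and 6 of 7 in adipogenic medium, 4 higher and 2 lower, against 33.2% of all genes. Lrrc32 encodes GARP, which holds latent TGF-beta at the cell surface. It was at 29.6, 27.0 and 28.4 FPKM in osteogenic controls and 45.7, 43.9 and 47.6 FPKM in osteogenic libraries labelled knockout, and at 47.0 to 53.6 FPKM in all 6 adipogenic libraries. Its log2 difference was 0.67 (adjusted p = 8.8e-05) in osteogenic and 0.05 (adjusted p = 0.533) in adipogenic medium. Thbs1, thrombospondin 1, an activator of latent TGF-beta, rose with the genotype label by 0.73 (adjusted p = 0.00252) in osteogenic and 0.49 (adjusted p = 0.00666) in adipogenic medium, at levels of 472 to 835 FPKM. Ltbp3, a latent TGF-beta binding protein, rose by 0.34 in osteogenic and fell by 0.22 in adipogenic medium (adjusted p = 0.00549 and 0.0177). The Ltbp3 interaction of -0.56 (adjusted p = 0.00138) was lost with libraries rescaled to the same sum of FPKM (adjusted p = 0.106). Ltbp2, a matrix protein of the same family, rose by 0.50 in adipogenic medium (adjusted p = 0.0337). The call was lost when any adipogenic labelled knockout library was left out, with no filter on low values and with only the 6 adipogenic libraries. The adjusted p reached 0.153 over the alternatives. Without control library 2 the Ltbp2 difference was 0.27 (adjusted p = 0.00394). Nrros, which tethers latent TGF-beta on myeloid cells, fell by 0.40 in adipogenic medium (adjusted p = 0.00358).

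Among regulators of receptor and SMAD signaling, Smurf2 and Pmepa1 were called in adipogenic medium. Smurf2 encodes a ubiquitin ligase that acts with SMAD7 on the receptor. It was at 22.2, 32.2 and 23.4 FPKM in adipogenic controls and 40.2, 47.5 and 44.7 FPKM in the labelled knockout (log2 difference 0.76, adjusted p = 0.000908), and at 27.6 to 29.5 FPKM in all 6 osteogenic libraries. Pmepa1, a TGF-beta-induced protein that sequesters SMADs, rose by 0.41 in osteogenic and 0.56 in adipogenic medium (adjusted p = 0.00137 and 5.82e-05). Smad2 stayed between 14.0 and 17.4 FPKM and Smad4 between 18.1 and 20.6 FPKM over all libraries, and neither was called between genotypes, as was the case for the SMAD corepressor gene Skil (9.60 to 19.5 FPKM). Decorin (Dcn), a matrix proteoglycan that binds TGF-beta, fell by 0.63 in adipogenic medium (adjusted p = 0.00787, but 0.0569 with only the 6 adipogenic libraries) at a low level of 0.973 to 2.82 FPKM. Lefty1, an antagonist of Nodal, rose by 0.63 in osteogenic medium (adjusted p = 0.0205) from 0.847, 0.609 and 0.966 FPKM to 1.68, 1.92 and 1.78 FPKM, a call that was lost (up to 0.0861) without osteogenic control library 1 or 2 or any osteogenic labelled knockout library, with no filter on low values and with libraries rescaled to the same sum of FPKM.

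Of 14 tested genes known as targets of TGF-beta, 12 were called in adipogenic medium (11 higher and 1 lower, against 16.7% and 16.5% of all genes) and 6 in osteogenic medium (4 higher and 2 lower, against 4.94% and 4.15%). In adipogenic medium Ccn2, a matricellular growth factor, rose by 0.81 (adjusted p = 0.000258), the basement membrane collagen gene Col4a1 by 1.01 (adjusted p = 4.57e-06), and Cdkn1a, a cell cycle inhibitor, by 0.74 (adjusted p = 7.14e-07). Cdkn2b, a further cell cycle inhibitor, rose in both media, by 0.73 (adjusted p = 0.00762, but 0.0529 with libraries rescaled to the same sum of FPKM) and 0.90 (adjusted p = 0.000732). Acta2, smooth muscle actin, rose in both media, by 0.41 (adjusted p = 0.0479) and 0.59 (adjusted p = 0.00319, but 0.0529 with only the 6 adipogenic libraries), and shares much of its sequence with other actin genes.

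Adam12, a metalloprotease gene, differed in opposite directions in the 2 media. It was at 6.62, 6.19 and 6.87 FPKM in osteogenic controls and 3.79, 4.10 and 4.41 FPKM in osteogenic libraries labelled knockout (log2 difference -0.57, adjusted p = 0.00315). The adipogenic values were 3.55, 2.74 and 3.47 FPKM in control and 9.03, 10.5 and 10.1 FPKM in labelled knockout libraries (log2 difference 1.36, adjusted p = 4.96e-06). The groups were apart in both media, and the interaction was 1.93 (adjusted p = 9.03e-06). Postn, a matrix protein of periosteum, fell by 0.24 in osteogenic medium (adjusted p = 0.0326) and rose by 0.44 in adipogenic medium (adjusted p = 0.000493). Tgfbi, a TGF-beta-induced matrix protein, was the 1 target called lower in adipogenic medium. It was at 163, 57.8 and 168 FPKM in adipogenic controls and 61.0, 34.6 and 35.8 FPKM in the labelled knockout, a log2 difference of -1.44 (adjusted p = 0.0121) with overlap through control library 2 and labelled knockout library 1. This difference did not pass with only the 6 adipogenic libraries (adjusted p = 0.0958) and was -1.94 (adjusted p = 2.69e-05) without control library 2. The Tgfbi interaction of -1.62 (adjusted p = 0.0465) was lost when any osteogenic library, adipogenic control library 1 or 3, or adipogenic labelled knockout library 2 or 3 was left out. It was also lost with no filter on low values and without the mean-variance trend, and adjusted p reached 0.105 over the alternatives.

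**Figure D4:**
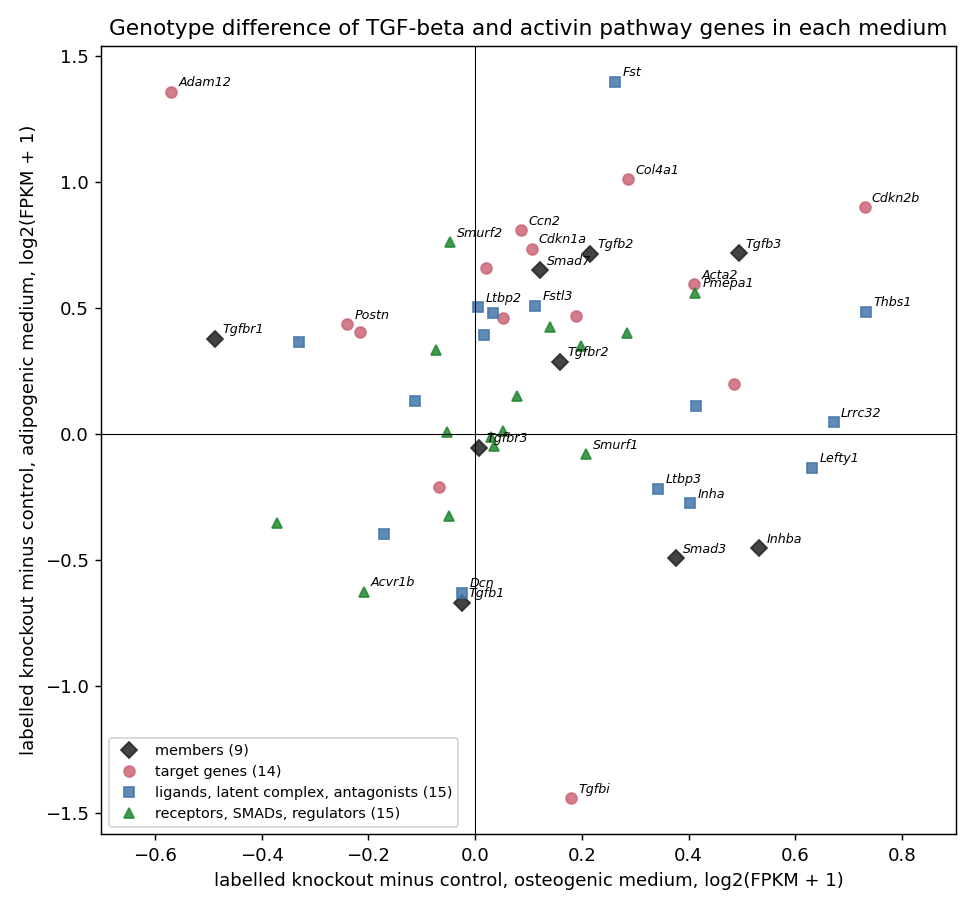
Log2(FPKM + 1) difference between labelled knockout and control in osteogenic (horizontal) and adipogenic medium (vertical) for the 9 genes and 44 other pathway genes. Adam12 lies at -0.57 and 1.36, Inhba at 0.53 and -0.45, and Fst at 0.26 and 1.40.

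Most of the macrophage markers were lower with the knockout label in adipogenic medium. The summed level of all 10 was 12266 to 12779 FPKM in osteogenic controls and 13930 to 14187 FPKM in the osteogenic labelled knockout, or 3309 to 3453 and 2874 to 2943 FPKM without Lyz2. In adipogenic medium it was 18287, 8414 and 18574 FPKM in controls and 7570, 5989 and 6156 FPKM in the labelled knockout, so control library 2 was closer to the labelled knockout than to its own group. Of the 10 markers, 8 were called lower with the knockout label in adipogenic medium, against 16.5% of all genes. In osteogenic medium 2 were (Csf1r and Mpeg1), against 4.15% of all genes, and none of the 10 was at 0 in any library. Cd14 (-1.21, adjusted p = 0.262) and Cd68 (0.01, adjusted p = 0.967) were not called in adipogenic medium. Cd68 was at 517, 861 and 491 FPKM in adipogenic controls, highest in library 2, and at 612, 592 and 617 FPKM in the labelled knockout. Among the adipogenic controls, Tgfb1, Inhba, Smad3, Tgfbi, Acvr1b, Tgfbr3 and Skil were higher in libraries 1 and 3 than in library 2. Nrros went the other way (38.3, 44.4 and 34.5 FPKM), as did Tgfbr1, Tgfbr2, Tgfb3 and Inhbb. Summed endothelial markers were at 2.55 to 2.68 FPKM in osteogenic controls and 7.18 to 7.63 FPKM in the labelled knockout, and at 3.54 to 4.38 and 5.99 to 7.56 FPKM in the adipogenic groups. Cdh5 and Emcn were called higher with the knockout label in both media, each at or below 3.15 FPKM. Pecam1 was called higher in osteogenic medium (0.80, adjusted p = 0.0115) but not called in adipogenic medium (-0.14, adjusted p = 0.511). Kdr was called in neither osteogenic (-0.10, adjusted p = 0.678) nor adipogenic medium (0.32, adjusted p = 0.0581). Of the 4 tested, 3 were called higher in osteogenic medium (4.94% of all genes) and 2 in adipogenic medium (16.7%). Of 7 tested stromal markers, 3 were called higher (Pdgfrb, Prrx1 and Itgb1) and 1 lower (Ly6a) with the knockout label in adipogenic medium. All genes had 16.7% higher and 16.5% lower there. In osteogenic medium 3 stromal markers were called higher (Itgb1, Prrx1 and Nt5e), against 4.94% of all genes. The part of other cell types in the differences above was not tested. Without Lyz2 the sum was 4408, 2958 and 4163 FPKM in adipogenic controls and 2560, 2145 and 2169 FPKM in the labelled knockout.

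**Figure D5:**
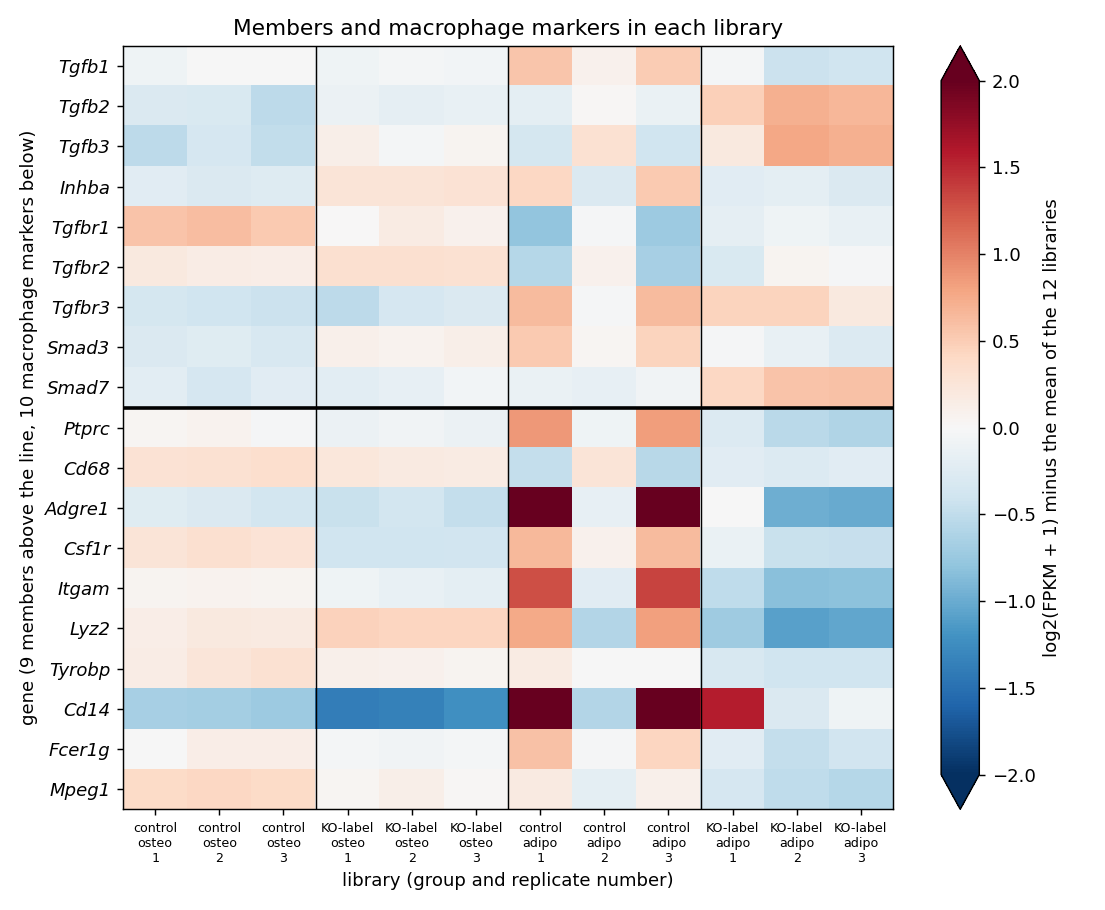
Log2(FPKM + 1) of the 9 genes and 10 macrophage markers in each library, each row centred on its mean over the 12 libraries, with the color scale ending at -2 and 2. Adipogenic control library 2 has lower Adgre1 and Lyz2 than libraries 1 and 3, and the summed markers are 8414 FPKM in it and 18287 and 18574 FPKM in those.

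The genes whose pattern over the 12 libraries was most like each member were found by the smallest root-mean-square difference of centred log2(FPKM + 1) values, as a description. For Tgfb1, whose own SD on this scale was 0.291, they were Lpin2 (0.0579) and Tfe3 (0.0663). Tgfb2 was nearest to Dlc1 (0.0681) and Nedd9 (0.0846), and Tgfb3 to Tpm2 (0.106) and Myl9 (0.117), genes of the contractile cytoskeleton. Inhba was nearest to Acvrl1 (0.0801), which encodes a type I receptor of the same superfamily, and Ccn4 (0.0974). Pkib (0.107) was among those nearest to Tgfbr1. The nearest genes were Gna12 (0.0587) and Slc39a10 (0.0708) for Tgfbr2, Adamts9 and Il1r1 (0.125 each) for Tgfbr3, Heg1 (0.079) and Hsph1 (0.0805) for Smad3, and Cpt1c (0.0553) and Limk2 (0.0687) for Smad7.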

How the data were processed

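The authors deposited RNA-seq values of 12 libraries in FPKM in a single table. The labels' processing notes name Bowtie 0.12.2 and the build mm9, while the paper's software list names HISAT2 and Ballgown. Annotation and use of strand are not given in the sources used here. Identifiers matched GENCODE M21 on GRCm38 for 54409 of 54532 genes. Low FPKM values (under 30 fragments) corresponded to a whole number of fragments in 98.6% to 98.9% of cases per library (tolerance 0.1, chance 20%), which gave the fragments used for limma voom.

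Genes reaching 1 FPKM in 3 or more libraries were tested on log2(FPKM + 1) in R 4.3.3 with limma 3.58.1 (mean-variance trend, 4 group means over all 12 libraries, Benjamini-Hochberg adjustment). The test was also run on simulated data, with normal noise that was independent between libraries and had the same spread in every group. That spread was taken from the groups other than the adipogenic controls, and no library was made to stand apart. The simulation therefore does not cover the effect of adipogenic control library 2. Members, gene lists and tests were chosen with earlier results of these data known. Other pathway genes were named where called between genotypes with an absolute log2 difference of at least 0.5, as the 6 largest of each direction in the interaction, or from a fixed list. Alternative settings used no filter, a pseudocount of 0.1, TPM, median ratio scaling, no trend, 6 libraries, a replicate block, voom and each library left out. Leaving out adipogenic control library 2 in comparisons that do not hold it was added after seeing the data. The values of 2 genes that the rule names are not reported here. Overlapping genes share at most 7.60% of the exonic length of a member. Figures were drawn in Python 3.11.15 with matplotlib 3.10.9.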

Additional observations from a re-analysis of the deposited data

Results flagged for a closer look

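For 6 of the 9 genes the genotype difference in adipogenic medium differed from that in osteogenic medium by the limma interaction term. The difference of the log2 differences (adipogenic minus osteogenic) was -0.98 for Inhba (adjusted p = 0.0155), -0.87 for Smad3 (adjusted p = 0.00413), -0.64 for Tgfb1 (adjusted p = 0.0321), 0.86 for Tgfbr1 (adjusted p = 0.0261), 0.53 for Smad7 (adjusted p = 0.00279) and 0.50 for Tgfb2 (adjusted p = 0.0149). Over all 12871 genes tested, 20.4% had such a difference.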

How the results depend on the processing

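Of 1206 values of named genes under alternatives, 1043 kept direction and side of the threshold, 124 no longer passed, 26 newly passed and 13 changed sign. Where not stated otherwise, the cause was not tested. Members called with the knockout label in osteogenic medium were 0, but 2 with the same sum of FPKM (TPM, 4.09% of all genes) and 5 with only the 6 libraries compared (26.6%). Leaving out libraries gave 0 to 4. Other pathway genes called there were 13, but 4 with TPM, 23 with 6 libraries and 8 with the replicate block (5.78% of all genes), and 6 to 21 with a library left out. In adipogenic medium members called were 5, but 2 with 6 libraries (13% of all genes), and 4 to 9 with a library left out. Other pathway genes were 28, but 14 with 6 libraries (25 to 35 with a library left out). In the interaction they were 6 members (4 to 7) and 18 others (14 to 29). Between media in control cells members called were 6, but 3 with no filter (6.68% of all genes), 3 with TPM (16.4%), 0 with 6 libraries (3.81%) and 3 with the replicate block (15.1%; 3 to 6 with a library left out). Other pathway genes were 17, but 10 with no filter, 10 with TPM, 3 with 6 libraries and 9 with the replicate block (5 to 28). Between media in the labelled knockout, members called were 4, but 8 with 6 libraries (37.4% of all genes; 3 to 8 with a library left out), and 19 others (16 to 24).

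The Tgfbr3 genotype difference changed sign with TPM, to -0.00097 in osteogenic medium, 0.12 in adipogenic medium and 0.12 in the interaction. With a library left out it ranged from -0.043 to 0.078 in osteogenic medium, -0.27 to 0.057 in adipogenic medium and -0.28 to 0.050 in the interaction, and the Tgfbr2 interaction from -0.016 to 0.36. Same-numbered libraries of the genotypes had correlated deviations of 0.466, 0.397 and -0.286 in adipogenic and -0.0375, 0.0576 and -0.0295 in osteogenic medium, and not every pair passed 0.1, so the samples were taken to share only a number in the replicate block. Libraries of 17469171 fragments or more limit only the low genes, with 3 fragments at 1 kilobase equal to 0.144 to 0.186 FPKM.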

Other observations

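Tagln, a smooth muscle gene on the list of TGF-beta targets, was listed at only 1.99 to 3.48 FPKM, beside Acta2 at 720 to 1494 FPKM in the same libraries. In GENCODE M21, 62.4% of the exonic length of Tagln is shared with Gm48529 on the opposite strand, which reached 2.22 FPKM. How fragments in shared exons were counted is not given in the sources used here, so the level of Tagln is uncertain, and so is its call in osteogenic medium (log2 difference 0.48, adjusted p = 0.0135).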
